A study of Arabidopsis thaliana with 12 samples.

Results

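Wounding a leaf changes the levels of many transcripts within minutes, and a transcript is usually followed as the average over replicates. The 25 genes described here had replicate values on both sides of 0 that differed strongly, in some of them through 1 array, as given below. They were chosen by the log2 ratios of wounded over not wounded, taken for each spot as 1 mean per biological replicate over its 4 arrays. A gene was kept if its highest replicate lay at least 1.2 above its lowest, if at least 1 replicate was above 0 and at least 1 below 0, and if its mean signal reached 200 in both the wounded and the not wounded channel. Of 22575 spots on the array, 9335 were annotated to exactly 1 gene, 6786 of these were bright enough in both channels, and 2399 of those had replicates on both sides of 0. The 25 spots left were 0.368% of the bright 1-gene spots and belonged to 25 genes with 1 spot each. Because the replicate ratios chose these genes, they are given below as a description and were not tested.

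All plants were Arabidopsis thaliana of ecotype Columbia-0, labelled Col. According to the methods, they were grown on soil for some weeks, and their rosette leaves were crushed with a hemostat a few hours after dawn. Each sample pooled leaves of many plants. Samples taken 5 min after wounding and samples from leaves that were not wounded formed 3 pairs of pools, called replicates 1, 2 and 3, which makes 6 pools. Each pair was hybridised on 4 2-colour arrays, from 2 technical replicates that were each run a second time with the dyes exchanged. The wounded sample was thus in Cy5 on 6 of the 12 arrays and in Cy3 on 6. On the array of replicate 3, technical replicate 2, with the wounded sample in Cy3, the channel label numbers that sample differently from the title, and the title was followed.

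Signals are the processed intensities of the arrays, in the arbitrary units of the scanner. The median signal of a channel was 309 to 383, and signals under a limit of 81 to 124, which depends on the array, are called dim here because 95% of the signals at spots whose deposited ratio was set to 0 lay below it. The leaf genes RCA, the activase of Rubisco, and LHCB4.1, an antenna protein of photosystem II, had mean signals of 140833 and 302083 in the wounded channel, against 190250.0 and 325083 in the not wounded channel. The root, pollen, flower, seed, guard cell, phloem and epidermis markers that had been listed held no tested spot, so the share of other cell types was not tested. In pooled leaves, fewer cells of a type and less RNA per cell cannot be told apart.

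Several of the genes act at the cell wall or outside the cell. A growing plant cell is enclosed by cellulose fibres tied together by xyloglucan and embedded in pectin. Xyloglucan endotransglucosylase/hydrolases, the XTH family, cut and rejoin the xyloglucan chains, and pectin methylesterases remove methyl groups from pectin and so change how stiff it is. EXORDIUM (EXO) is a protein of the cell wall space that brassinosteroid hormones induce and that promotes growth. PYK10 is the beta-glucosidase of the ER bodies, storage compartments that are abundant in roots and seedlings and hold defence enzymes, and GLL23 is a GDSL-like lipase.

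Replicate 1 was the one farthest from the mean of the others in 16 of the 25 genes (64.0%), which is close to its share among all bright 1-gene spots, 65.6%. It was the high one in 9 genes and the low one in 7. Replicate 3 was farthest in 7 genes, high in 5 and low in 2, and replicate 2 was farthest in 2 genes, low in both. The difference between the highest and the lowest replicate had a median of 1.62 on the log2 scale in the 25 genes, against 0.21 in all bright 1-gene spots, of which 95% lay below 0.65.

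**Figure D1:**
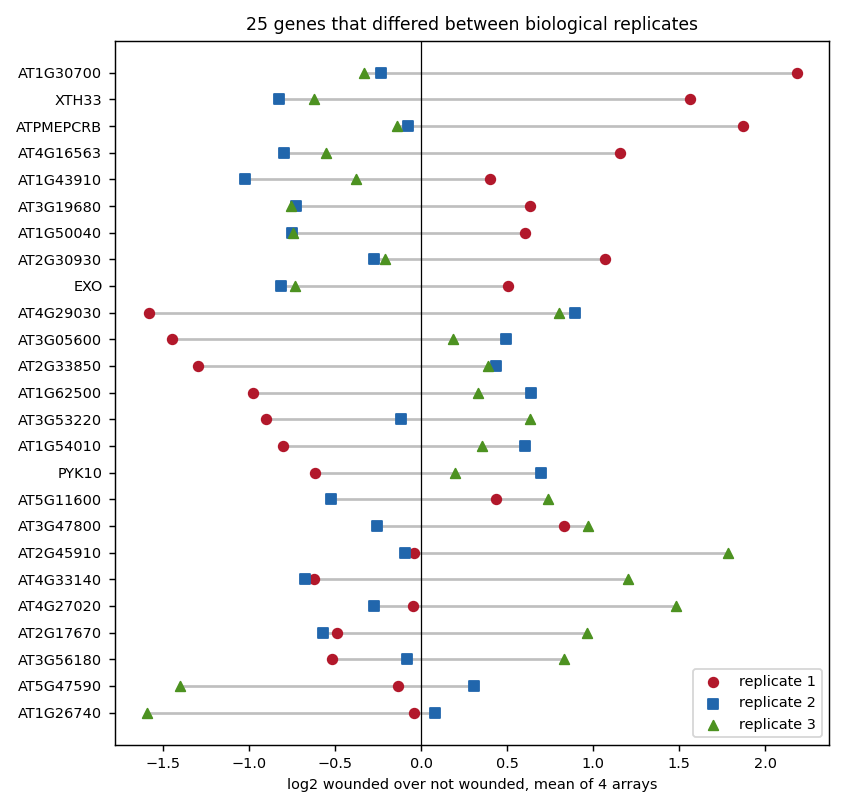
Log2 ratio of wounded over not wounded (horizontal axis) in replicates 1, 2 and 3 (circles, squares and triangles, each the mean of 4 arrays) for the 25 genes, with a grey line over the range of each gene. Replicate 1 is the farthest from the other 2 in the upper 16 rows, and replicate 3 is in the lowest 7.

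In 8 genes replicate 1 was higher on each of its 4 arrays than the other replicates on any of their 8. The first of these is AT1G30700, which belongs to the family of berberine bridge enzyme-like oxidases. Its signal was 1213, 770.2 and 477 in the wounded pools of replicates 1, 2 and 3, against 267, 907 and 602 in the not wounded pools. The wounded pool of replicate 1 was thus the highest of the 6, and the not wounded pool of the same replicate was the lowest. Its log2 ratios were 2.18, -0.24 and -0.34 in replicates 1, 2 and 3, which is 4.55-fold higher in the wounded pool of replicate 1.

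XTH33, of the xyloglucan-modifying family, was likewise highest among the wounded pools and lowest among the not wounded pools in replicate 1, at a lower signal. It had 344, 198 and 175 in the wounded pools of replicates 1, 2 and 3 and 117, 351 and 269.7 in the not wounded pools. On the single arrays of replicate 1 the not wounded signals were 128, 103, 131 and 107. These lay just above the dim limits of the same arrays, 115, 92.9, 124 and 88.2. Its log2 ratio was 1.56 in replicate 1, -0.83 in replicate 2 and -0.62 in replicate 3. On single arrays the ratio lay between 1.17 and 1.83 in replicate 1 and between -1.44 and -0.26 in the others, so that every array of replicate 1 was above 0 and every other array below it.

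The pectin methylesterase gene ATPMEPCRB, also named PME41, had a signal of 2538, 1465 and 966 in the wounded pools and 694, 1546 and 1063 in the not wounded pools of replicates 1, 2 and 3. Its log2 ratio was 1.87 in replicate 1 but -0.08 and -0.14 in replicates 2 and 3. Replicates 2 and 3 thus gave no more than a small difference, and their single arrays lay on both sides of 0, between -0.41 and 0.44.

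AT4G16563, a member of the aspartyl protease family, had 566, 347 and 289 in the wounded pools and 254.5, 604 and 424 in the not wounded pools. Its log2 ratio was 1.15 in replicate 1, -0.80 in replicate 2 and -0.55 in replicate 3. All 4 arrays of replicate 1 were above 0, at 0.83 and more, and all 8 others were below it.

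EXO was among the brighter genes, with 3101, 2780.4 and 2018 in the wounded pools and 2187, 4890.0 and 3358 in the not wounded pools. The log2 ratio of EXO was 0.50 in replicate 1, -0.81 in replicate 2 and -0.73 in replicate 3. The ratios on single arrays were 0.39 to 0.60 in replicate 1 and -0.996 to -0.46 elsewhere, and technical repeats of one dye orientation differed by at most 0.05.

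AT3G19680 and AT1G50040, which encode related proteins of unknown function, had ratios similar to each other and to those of EXO. AT3G19680 was the brightest of the 25 genes, with 7757, 6516 and 5227 in the wounded pools and 5008, 10798 and 8845 in the not wounded pools. AT1G50040 had 845, 822 and 417 in the wounded pools and 556, 1383 and 700.2 in the not wounded pools. Their log2 ratios in replicates 1, 2 and 3 were 0.63, -0.73 and -0.76 for AT3G19680 and 0.60, -0.75 and -0.75 for AT1G50040. Whether the spots of these related genes also take up each other's transcript was not tested.

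The last of the 8 was AT2G30930. It had 5485, 5055 and 3422 in the wounded pools and 2620.2, 6105 and 3958 in the not wounded pools. With log2 ratios of 1.07, -0.27 and -0.21, it resembled PME41 in that the ratio was well above 0 in replicate 1 and slightly below 0 in the others.

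The 2 sides of the ratio are described here by the pool signals of these 8 genes. The rule used these signals, so nothing is read from their order. The wounded pool of replicate 1 was the highest of the 3 wounded pools in 8 of 8, and its not wounded pool was the lowest of the 3 not wounded pools in 8 of 8. Relative to the pool of replicate 1, the median log2 difference was -0.45 in replicate 2 and -0.97 in replicate 3 for the wounded pools, and 1.23 and 0.68 for the not wounded pools. When each channel was divided by its median the wounded pool of replicate 1 was the highest in 7 of 8 and the not wounded pool the lowest in 8 of 8. Pool signals also differed between replicates where the ratio hardly did. UGT78D1, a flavonoid gene outside the set, had 2296, 2065 and 1147 in the wounded pools and 3834, 3356 and 1901 in the not wounded pools. Its log2 ratios were -0.74, -0.70 and -0.73.

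In 4 genes replicate 1 was instead the low one on all of its arrays. AT4G29030 had 1519, 5263 and 3819.9 in the wounded pools and 4555, 2835 and 2190.5 in the not wounded pools. Its log2 ratio was -1.58 in replicate 1 and 0.89 and 0.80 in replicates 2 and 3. On single arrays it ran between -1.67 and -1.45 in replicate 1 and between 0.26 and 1.35 in the others, so the 2 sets of arrays lay on opposite sides of 0.

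AT2G33850 had 448, 1037 and 658 in the wounded pools and 1103, 768 and 503 in the not wounded pools. The log2 ratio was -1.30 in replicate 1, 0.43 in replicate 2 and 0.39 in replicate 3. AT1G62500, which encodes a protein of the lipid-transfer type, had 369, 752 and 674 in the wounded pools and 727, 484 and 537 in the not wounded pools. In both genes the wounded pool of replicate 1 was the lowest of the 6 pools. The log2 ratios of AT1G62500 were -0.98, 0.64 and 0.33.

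The lipase gene AT1G54010, or GLL23, had 362, 571 and 479.6 in the wounded pools and 631, 376 and 375 in the not wounded pools, with log2 ratios of -0.80, 0.60 and 0.35. Over the 4 genes, the wounded pool of replicate 1 was the lowest of the wounded pools in 4 of 4 and its not wounded pool the highest of the not wounded pools in 4 of 4, with or without division by the channel median. Relative to the pool of replicate 1, the median log2 difference was 1.12 in replicate 2 and 0.71 in replicate 3 for the wounded pools, and -0.64 and -0.90 for the not wounded pools. As above, nothing is read from the order of these pools.

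Replicate 2 stood alone on all arrays in 1 gene, AT3G47800, which encodes a protein of the aldose epimerase family. Its signal was 1295, 769 and 1149.9 in the wounded pools and 728, 917 and 586 in the not wounded pools. The log2 ratio was 0.83 in replicate 1, -0.25 in replicate 2 and 0.97 in replicate 3. On single arrays it was -0.33 to -0.18 in replicate 2 and 0.53 to 1.12 in the others, and technical repeats differed by at most 0.07. With a difference of 1.23 this gene was the nearest inside the limit.

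**Figure D2:**
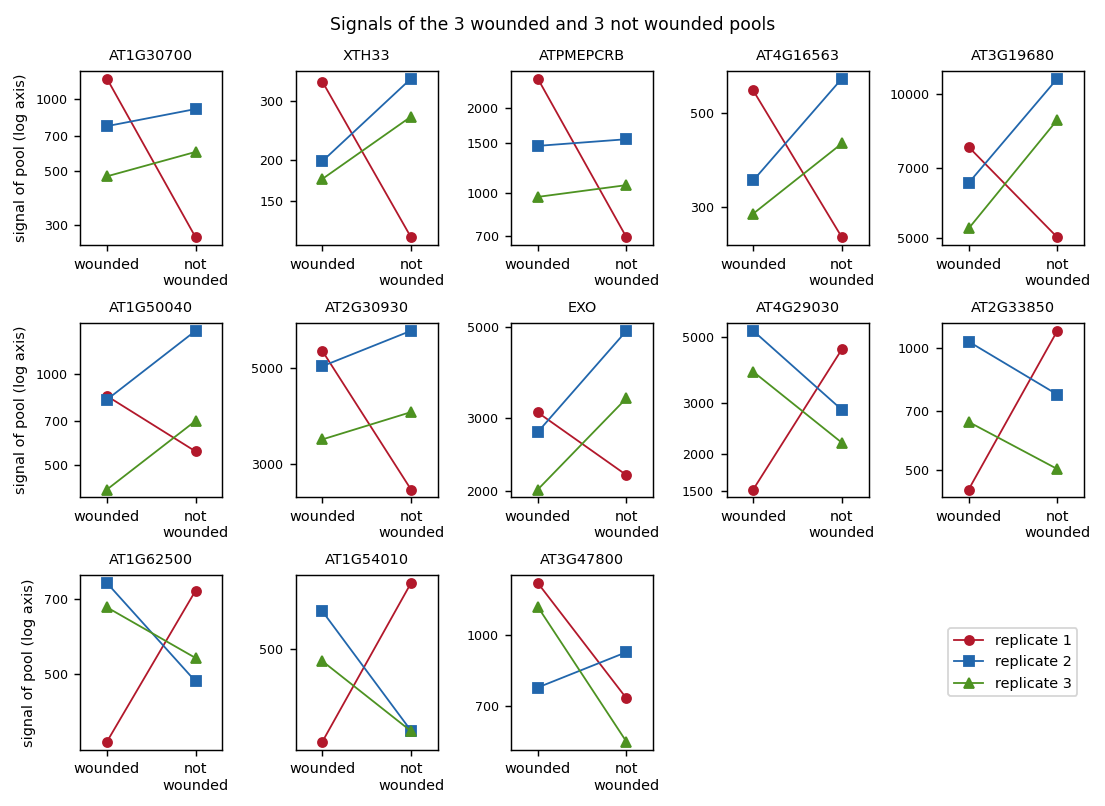
Signal (vertical log axis, arbitrary units, geometric mean of 4 arrays) of the wounded pool (left) and the not wounded pool (right) of replicates 1, 2 and 3 in the 13 genes in which 1 replicate was apart from the others on all 12 arrays. The line of replicate 1 runs against the other 2 in 12 panels, from a high wounded pool to a low not wounded pool in 8 and the other way in 4, and in the panel of AT3G47800 the line of replicate 2 does so.

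In all, 1 replicate was apart from the others on every array in 13 of the 25 genes (52.0%), against 17.4% of the bright 1-gene spots. The choice of genes by the same ratios favours such a separation, and nothing is read from the difference. In these 13 genes no signal was dim on any array, and technical repeats, the 2 arrays of one replicate with the same dye orientation, differed by at most 0.51. In each of the other 12 genes at least 1 signal was dim on at least 1 array, and the largest gap between technical repeats was 0.73 or more, above 1 in 10 of them. Over all 25 genes the median gap was 0.09, against 0.06 for all bright 1-gene spots.

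**Figure D3:**
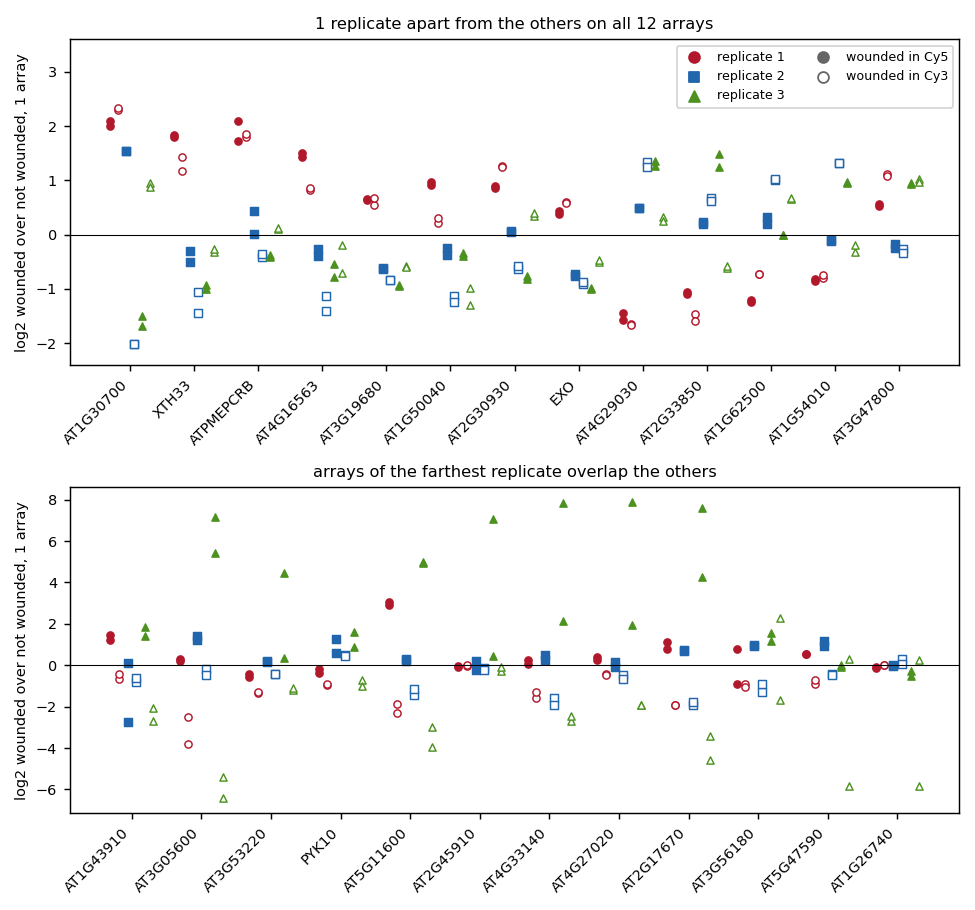
Log2 ratio of wounded over not wounded on each of the 12 arrays (vertical axis), for the 13 genes in which 1 replicate was apart from the others (upper panel) and the 12 in which it was not (lower panel, wider scale). Filled symbols mark the wounded sample in Cy5 and open symbols mark it in Cy3. In the lower panel single arrays of replicate 3 reach 7.87 and -6.42.

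The 7 genes in which replicate 3 was farthest were all among these 12. For AT2G45910, a gene for a protein with a kinase and a U-box domain, the signal was 233, 267 and 323 in the wounded pools and 239.7, 286 and 93.6 in the not wounded pools. The ratio was 7.06 on 1 array of replicate 3 (technical replicate 1, wounded in Cy5) and between -0.28 and 0.43 on the other 11. On that array the wounded signal was 739 and the not wounded signal 5.52. Without it the difference between replicates, 1.88 with all arrays, was 0.12.

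The same array decided AT4G33140 and AT4G27020. AT4G33140 had 243, 174 and 169 in the wounded pools and 375, 277 and 73.5 in the not wounded pools. AT4G27020 had 419, 258 and 249 in the wounded pools and 433, 312 and 89.5 in the not wounded pools. Their ratios on that array were 7.82 and 7.87, and without it their differences between replicates, 1.88 and 1.75, were 0.38 and 0.60.

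AT5G47590 and AT1G26740, the second a gene for a ribosomal protein of the L32 type, depended on another array of replicate 3, that of technical replicate 1 with the wounded sample in Cy3. AT5G47590 had 168, 266 and 106 in the wounded pools and 184, 216 and 281 in the not wounded pools. AT1G26740 had 252, 289.5 and 103 in the wounded pools and 260.0, 274 and 309.8 in the not wounded pools. On that array the ratios were -5.82 and -5.81, and without it the differences, 1.71 and 1.67, were 0.44 and 0.27. On the 11 other arrays AT1G26740 lay between -0.52 and 0.32.

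AT2G17670 and AT3G56180 complete the genes with replicate 3 farthest. The log2 ratios of AT2G17670 were -0.49, -0.57 and 0.96 in replicates 1, 2 and 3, and its single arrays ran from -4.57 to 7.59. AT3G56180, with log2 ratios of -0.52, -0.08 and 0.83, was dim on 10 of 12 arrays in each channel. It met the signal minimum through 1 array of replicate 1 with 906 in the wounded and 1690.0 in the not wounded channel, and 1 of replicate 3 with 1940.0 in the wounded and 396 in the not wounded channel.

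Replicate 1 was farthest without being apart on all arrays in 4 genes. AT1G43910, of the AAA-type ATPase family, had log2 ratios of 0.40, -1.02 and -0.38 in replicates 1, 2 and 3, and its difference of 1.42 was 0.85 without 1 array of replicate 2. AT3G53220, a thioredoxin-like gene, had -0.90, -0.12 and 0.63, and its difference of 1.53 was 0.78 without the array of replicate 3 on which the 3 genes above had their highest ratio.

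PYK10 had log2 ratios of -0.62, 0.69 and 0.20 in replicates 1, 2 and 3, and its difference of 1.31 was 1.12 without 1 array. All 4 arrays of replicate 1 were below 0 and all 4 of replicate 2 above it, at 0.44 to 1.26, but in replicate 3 the Cy5-labelled wounded sample gave 1.61 and 0.88 and the Cy3-labelled one gave -0.70 and a lower value. AT3G05600, of the alpha/beta hydrolase family, had 94.4, 175 and 69.4 in the wounded pools and 258, 124 and 61.0 in the not wounded pools, with log2 ratios of -1.45, 0.49 and 0.19. Its single arrays ran from -6.42 to 7.14.

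AT5G11600, the second gene with replicate 2 low, had 135, 309 and 71.6 in the wounded pools and 99.5, 446 and 43.0 in the not wounded pools, with log2 ratios of 0.44, -0.53 and 0.74. Its difference of 1.26 was the second nearest inside the limit. Every array with the wounded sample in Cy5 was above 0, up to 4.99, and every array with it in Cy3 was below 0, down to -3.97. Just outside the limit lay SCPL43, a serine carboxypeptidase-like gene, with log2 ratios of -0.47, -0.04 and 0.73, and AT5G16250, with -0.57, 0.60 and 0.52, whose difference was 1.17.

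Leaving out 1 array at a time left a difference of at least 1.2 in 12 of the 25 genes, whichever array it was. These were the 8 genes with replicate 1 high on all arrays, AT4G29030, AT2G33850 and AT1G62500 with replicate 1 low, and AT3G47800. GLL23, also apart on all arrays, had a difference of 1.41 and of 1.17 without 1 array. The array of replicate 3, technical replicate 1, with the wounded sample in Cy5 kept the fewest of the 25 when left out: the rule then returned 37 genes, of which 17 were among the 25.

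**Figure D4:**
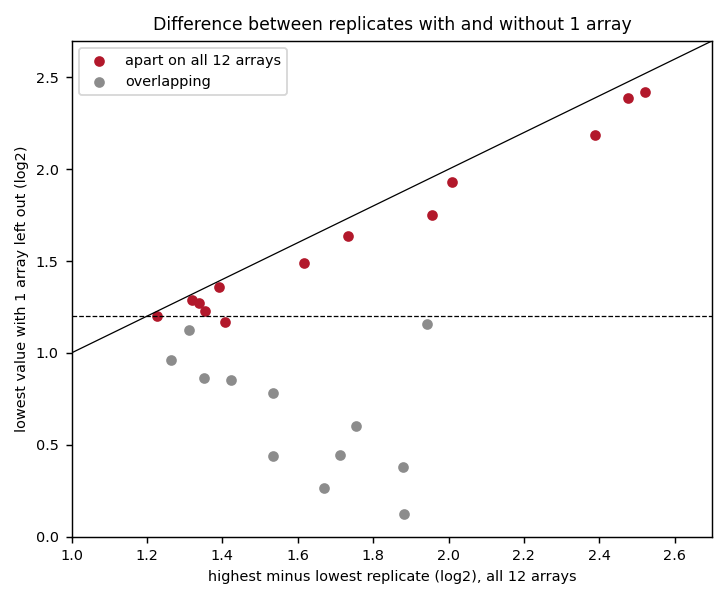
Lowest difference between the highest and the lowest replicate (log2, vertical axis) when 1 of the 12 arrays is left out, against the difference with all arrays (horizontal axis), for the 25 genes. Red points, the 13 genes with 1 replicate apart on all arrays, stay near the diagonal, and 12 of them lie at or above the dashed limit of 1.2, while all 12 grey points fall below it.

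The not wounded pools spanned more than the wounded pools, as the log2 of the highest over the lowest pool, in 18 of the 25 genes (72.0%), against 39.7% of the bright 1-gene spots. Of these 18, 8 had replicate 1 high, 4 replicate 1 low, 1 replicate 2 low and 5 replicate 3 high. AT5G11600 had the widest span, 3.38 over the not wounded pools and 2.11 over the wounded pools. XTH33 spanned 0.98 over the wounded and 1.59 over the not wounded pools. Among the genes with replicate 1 high, PME41 was the exception, with a span of 1.39 over the wounded pools and 1.16 over the not wounded pools. Without the 1 array that lowered the difference of each gene most, the count was 15. With the wounded sample in Cy5 only or in Cy3 only, it was 16 and 12. The rule used the same signals, so nothing is read from these shares.

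The dye swap gives a second measure from the same arrays, which the rule averaged out. The dye effect, the log2 ratio measured when Cy5 labelled the wounded sample minus that when Cy3 did, divided by 2, was taken per replicate and tested against 0 with limma over 20072 genes and spots. At an adjusted p under 0.05, 3 of the 25 genes had a higher ratio with the wounded sample in Cy5, against 9.72% of all features, and 1 had a lower one, against 14.1%. Nothing is read from these shares, since single arrays that brought a gene into the set also enter its dye effect. That holds for AT5G47590, at 0.92 ± 0.38 (SD over n = 3 replicates), and AT3G56180, at 0.67 ± 0.32, whose values are given as a description. The other two, AT1G50040 (0.39 ± 0.05, adjusted p = 0.024, limma) and AT1G62500 (-0.32 ± 0.06, adjusted p = 0.038, limma), kept a difference between replicates of at least 1.2 whichever array was left out. None of the 4 passed without replicate 1 or without replicate 2.

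The dye effect, which takes in any difference between the 2 orientations, also differed between replicates in genes with 1 replicate apart on all arrays. In AT1G30700 it was -0.13, 1.77 and -1.25 in replicates 1, 2 and 3. The arrays of replicate 2 gave 1.54 and 1.54 with the wounded sample in Cy5 and -2.01 and -2.01 with it in Cy3. In replicate 3 those with Cy5 gave -1.68 and -1.50 and those with Cy3 gave 0.95 and 0.88. Replicate 1 gave 2.01, 2.10, 2.30 and 2.33, so for this gene only the arrays of replicate 1 were alike in both orientations.

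GLL23 had dye effects of -0.03, -0.72 and 0.61 in replicates 1, 2 and 3, and AT2G30930 had -0.19, 0.33 and -0.59. In AT4G29030 the dye effects were 0.07, -0.40 and 0.51. In 13 of the 25 genes (52.0%) the dye effect had opposite signs in replicates 2 and 3, against 32.2% of the bright 1-gene spots. Of these 13, 11 were among the genes with 1 replicate apart on all arrays, and in AT1G30700, GLL23, AT2G30930 and AT4G29030 technical repeats within an orientation differed by 0.17 or less. The mean over the dye swap of a replicate therefore stands for arrays that gave 2 different values in these genes. In AT1G30700, GLL23, AT2G30930 and AT4G29030, each orientation of replicate 2 lay nearer to the other orientation of replicate 3 than to the same one. That also held in XTH33, PME41, AT4G16563, AT3G19680 and AT2G33850. It did not hold in AT1G50040, EXO, AT1G62500 and AT3G47800, the remaining genes with 1 replicate apart on all arrays. AT4G29030 gave 0.50 in Cy5 and 1.29 in Cy3 in replicate 2, and 1.31 and 0.29 in replicate 3. GLL23 gave -0.11 and 1.32 in replicate 2, and 0.965 and -0.26 in replicate 3. What lies behind this, and the part of the dye in the difference between replicates, was not tested.

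The mean over replicates of none of the 25 genes differed from 0 at an adjusted p under 0.05 in limma, against 14.5% of all 20072 features (7.25% higher and 7.24% lower), and none did at an unadjusted p under 0.05. The adjusted p ran from 0.24 for AT3G47800 to 0.99. Since the rule required replicates on both sides of 0, nothing is read from this.

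Relatives of the named genes were looked up after the 25 were known and are given as values. Of the XTH family 8 genes were tested, and their median difference between replicates was 0.30, against 0.23 for all tested spots. EXGT-A3, of this family, had log2 ratios of 0.63, -0.25 and -0.29 in replicates 1, 2 and 3 at mean signals of 48183 in the wounded and 47442 in the not wounded channel, with replicate 1 highest as in XTH33. XTH29 had 0.59, -0.34 and 1.04, with replicate 3 highest and a difference of 1.38. Its mean signals were only 89.9 in the wounded and 61.9 in the not wounded channel. XTH32, in contrast, was lower in the wounded pools of all replicates, at -0.76, -0.63 and -0.56 (limma, adjusted p = 0.015).

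Of the pectin methylesterase family 4 genes were tested, with a median difference of 0.35. PMEPCRF had log2 ratios of -0.54, -1.09 and -1.01 in replicates 1, 2 and 3 and was lower in wounded pools (limma, adjusted p = 0.022). PME61 had -0.01, 0.15 and 0.08. Of the beta-glucosidase family of PYK10, 14 genes were tested, and the median difference was 0.32. BGLU21 and BGLU22, both relatives of PYK10 in that family, had log2 ratios of 0.14, -0.23 and -0.02 and of -0.12, 0.12 and -0.11, at mean signals of 151 and 118 in the wounded channel.

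None of the 25 genes belonged to the 21 lists of clock, light, cold, heat, hormone, flavonoid, nutrient, touch and cell type genes. Of the 209 genes on these lists 26 were tested. At an adjusted p under 0.05 in limma, 6 of the 26 were higher and 6 lower in wounded pools, against 7.25% and 7.24% of all features. The lists were written with earlier results of these data known, so nothing is read from these counts. The difference between replicates of the 26 had a median of 0.30 and reached 0.83 in KIN2, a cold-regulated gene, with log2 ratios of -0.01, 0.82 and 0.81. No list gene had a difference of 1.2 or more. The 25 genes lay on all 5 chromosomes, with 7, 4, 6, 6 and 2 genes on chromosomes 1 to 5, and no pair of them were neighbours in the annotation.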

How the data were processed

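RNA of wounded and not wounded rosette leaves was compared on 12 2-colour Agilent arrays. Per the labels and methods, the authors used Agilent Feature Extraction 8.1 with its defaults to subtract background and scale the dyes, and deposited the resulting processed intensities of Cy3 and Cy5. They also deposited log10 ratios of Cy5 over Cy3, used here as an alternative. These are exactly 0 at dim spots (1129 to 2714 per array). The intensities entered without further correction and were turned by the channel labels. Flags, control spots, slide and scan were not used here. Scaling of the dyes, background subtraction at low signal and the dye swap can each change a ratio.

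Log2 ratios were averaged over the 4 arrays of a replicate. A pool's signal is the geometric mean over its 4 arrays, 2 per dye. For tests, a spot needed a deposited ratio other than 0 on 1 or both arrays of every dye-swap pair (6 pairs), spots of a gene were averaged, and the mean of the 3 replicates was set against 0 in limma 3.58.1 (R 4.3.3, lmFit and eBayes) with Benjamini-Hochberg adjustment over 20072 features. Numbers were computed with Python 3.11.15. The fit was tested on simulated data, in which the dye effect was alike in all replicates and no single array departed. The simulation therefore does not vouch for the fit in genes such as these. The precision is limited by the number of arrays and of replicates.

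Genes were named from the platform annotation, updated through Entrez identifiers with a table of assembly TAIR10.1 (9317 of 9335 spots matched). The genes, lists and tests were chosen with earlier results of these data known. Named by rule were all 25 genes with replicate ratios, the pool signals of the 12 with the largest difference and of the 2 just inside the limit, and the 2 spots just outside it. Other values, and the families, were chosen after their values were seen. A promoter search was planned but not run, since no sequence was used here. Alternatives were the deposited ratios, median centring, loess (span 0.3), other thresholds and filters, single dye orientations, technical replicates, a replicate block, and arrays or replicates left out.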

Additional observations from a re-analysis of the deposited data

Results flagged for a closer look

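The 12 arrays of each gene were looked at as 2 groups of 6, those with the wounded sample in Cy5 and those with it in Cy3. In 8 of these 50 groups the highest or lowest array lay farther from the next than Dixon's critical value for groups of 6 at the 95% level allows. Chance gives about 1 in 20 such groups, but the ratios of these arrays also chose the genes, so the 8 cannot be set against that rate. With the wounded sample in Cy5, the highest array was 4.44 in AT3G53220 (next 0.36), 7.06 in AT2G45910 (next 0.43), 7.82 in AT4G33140 (next 2.16) and 7.87 in AT4G27020 (next 1.92), on the log2 scale, and all 4 values came from the same array of replicate 3, technical replicate 1. In the same orientation the lowest array of AT3G56180 was -0.90 (next 0.78). With the wounded sample in Cy3, the highest array of AT3G56180 was 2.29 (next -0.89), and the lowest was -5.82 in AT5G47590 (next -0.90) and -5.81 in AT1G26740 (next 0.00), both on the array of replicate 3, technical replicate 1.

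In 4 genes all 6 arrays with the wounded sample in Cy5 were above 0 and all 6 with it in Cy3 were below 0. The means were 2.61 and -3.12 in AT3G05600, 2.73 and -2.30 in AT5G11600, 1.85 and -1.91 in AT4G33140, and 2.52 and -2.59 in AT2G17670. The difference between the orientations was tested only as the dye effect over 3 replicates, at which none of the 4 had an adjusted p under 0.05 in limma (0.087 to 0.17).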

How the results depend on the processing

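The number of genes under the rule, 25, was 25 with the deposited log10 ratios and with loess and 26 with median centring, of which 25, 24 and 25 were among the 25. It was 89 with the wounded sample in Cy5 only and 72 in Cy3 only (17 and 14 shared), 29 and 47 with technical replicate 1 or 2 only (19 and 18 shared), and 46 without the array of differing label number. A limit of 1 or 1.5 on the difference gave 48 and 15 genes, a signal minimum of 100 or 400 gave 55 and 12, and no condition on sign gave 40. Leaving out a replicate gave 9 (without replicate 1) to 17, and leaving out 1 array, an alternative chosen after seeing the data, gave 25 to 56, with 56, 48 and 46 without each of the 3 arrays of replicate 3 other than that of technical replicate 1 with the wounded sample in Cy5, which gave 37. Over all genes and spots, 2909 differed between wounded and not wounded, 5982 in Cy5 only, 7081 in Cy3 only, 6141 with a replicate block over the 12 arrays, and 190 (without replicate 2), 554 (without replicate 3) and up to 3162 with a replicate left out. Of the 25 genes none differed in the fit reported, 4 in Cy3 only, 1 with the replicate block and 1 to 7 with a replicate left out. The 7 came without replicate 1, where 3162 of the 20072 features differed. Replicate 1 was the farthest in 16 of the 25, and the rule used the same ratios, so nothing is read from these counts. The dye effect was called for 4780 features, 1412 at a mean signal of at least 200 and 338 to 6639 with a replicate left out. Of the 25 genes it was called for 4, for 2 at that signal minimum and for 0 to 12 with a replicate left out. The 6639 and the 12 both came without replicate 3. Single arrays that brought a gene into the set also enter its dye effect, so nothing is read from these counts. With the wounded sample in Cy3 only, the farthest replicate lay on the other side in AT5G11600, AT2G45910, AT4G33140, AT4G27020 and AT2G17670, whose differences were then 2.18, 0.16, 1.16, 1.51 and 2.14. The cause was not tested. Of 300 differences recomputed under 12 settings, 235 moved by less than 1 SD of the 3 replicate values of the same gene. The rule chose genes in which this SD is large, so the count is no measure of stability. AT1G43910, with an SD of 0.71, counted as unmoved at 0.76 with technical replicate 1 only, against 1.42 with all arrays. The counts of genes with 1 replicate apart (13 under median centring and loess) and with wider not wounded pools (12 to 18) stayed within 1.5 times. Signals near the dim limit restrict what can be said of XTH33 and of the 12 genes in which no replicate was apart on all arrays.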

Other observations

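Of the 12 arrays, 2 held more spots that departed from their repeat than the others, those of technical replicate 1 of replicate 3. Counting spots whose ratio differed by over 8-fold from the other array of the same replicate and orientation, where that other array had a signal of at least 150 in the wounded and 80 in the not wounded channel, there were 46 on each array of technical replicate 1 of replicate 3, and 0 to 14 on each of the other 10 arrays. Of the 25 genes 3 were among the 46 on one of these arrays and 3 among the 46 on the other. The count does not tell which of 2 repeats is the unusual one. AT3G56180 was counted on the array with the wounded sample in Cy3, where it had 19.9 and 63.7 in the wounded and not wounded channels. Its high signals, 1940.0 and 396, were on the repeat. The thresholds of the rule on difference, sign and signal were met by 32 spots with no gene or several genes, of 7368 such spots that were bright enough. These were left out because they could not be named.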
